A study of Bos taurus with 18 samples.

Results

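The genes *TGM3*, *KRT36*, *PRSS53* and *PI3*, whose human counterparts act in the hardening of surface epithelium and of the sheath around the hair were followed in the rumen wall of lactating dairy cows. Their identifiers are ENSBTAG00000001785, ENSBTAG00000046124, ENSBTAG00000031551 and ENSBTAG00000039028, and they are 4 of the 24616 genes in the expression table and 4 of the 13284 that passed the filter on low values. They were chosen by their function and by measured values of these same cows, namely a lower mean level on alfalfa hay than on corn stover or rice straw. For that reason their levels on alfalfa hay against the other diets are given as a description, without a test. The tests concern the comparison of the straw diets with each other and the relations between the genes among cows of 1 diet.

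The samples were ruminal papillae of 18 multiparous lactating Holstein cows, whose ages are not given in the sources used here, slaughtered at the end of a feeding trial. All cows received concentrate and corn silage, and the 3 diets differed in the other forage. The AH diet held alfalfa hay with Chinese wild rye hay, the CS diet held corn stover and the RS diet held rice straw, with 6 cows on each and 1 library per cow. The study asked how the forage source changes gene expression in the rumen wall. Expression was measured by RNA-seq and is given in CPM, the reads on a gene relative to those on every annotated gene in the same cow, scaled so that each library has the same total. The libraries held 16099131 to 32252177 reads on genes, so that 1 gene with no read could have reached 0.0930 to 0.186 CPM (3 reads, counting error only). The 10 genes with most reads took 11.7% to 24.0% of a library, and the median correlation of a cow with the other 17 across genes lay between 0.918 and 0.963. CPM are not divided by gene length, so the levels of different genes were not ranked against each other.

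Cornification is the process by which the outer cells of a stratified epithelium die in place and turn into a tough, insoluble layer. Transglutaminases weld proteins into an envelope under the cell membrane, keratins fill the cell with filaments, and proteases and their inhibitors control how envelope precursors are cut and how dead cells are shed. The rumen is lined by such a cornified epithelium, which both resists abrasive feed and lets volatile fatty acids through.

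The genes differ in their surroundings in the genome. In the RefSeq annotation of the ARS-UCD2.0 assembly, in which all 4 symbols were found, *TGM3* lies beside the related *TGM6*, and *KRT36* lies in a row of keratin genes between *KRT35* and *KRT13*. *PI3* lies near *WFDC15B* and *SLPI*, which code for proteins of the same whey acidic protein family. *PRSS53* overlaps the neighbouring *ZNF646*. The paper names a stranded library kit, but whether reads were counted by strand is not given in the sources used here. Reads of the overlap may therefore have been counted for either gene or for neither. Reads with several mapping hits had been removed by the authors, which can lower the values of genes with near-identical relatives. That assembly is not the UMD3.1 build of the expression values, so no coordinates are given.

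*TGM3* codes for transglutaminase 3, which joins envelope and hair sheath proteins by bonds that resist proteases. In AH the lowest cow had 133 CPM, the median was 466 and the highest cow had 834. In CS the values ran from 247 CPM over a median of 1069 to 2167, and in RS from 597 over 1088 to 2019. All 6 AH cows lay below the medians of CS and of RS, yet the diets overlapped, as 3 CS cows and 4 RS cows lay above the highest AH cow. Cows on AH averaged 478 ± 282 CPM, those on CS 1121 ± 669 and those on RS 1152 ± 543 (SD, n = 6 each). The log2 ratio of mean CPM was -1.23 with a standard error (SE) of 0.49 in AH vs. CS and -1.27 (SE 0.44) in AH vs. RS.

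*PI3* codes for elafin, an inhibitor of elastase that is itself a substrate of transglutaminases and is anchored by them in the tissue. In AH its level was 10.4 CPM in the lowest cow, 47.8 at the median and 135 in the highest cow. In CS it spread from 23.4 CPM over a median of 288 to 1093, and in RS from 137 over 403 to 866. The AH cows lay below all RS cows, with the highest AH cow (135 CPM) just under the lowest RS cow (137 CPM). In CS, 4 of 6 cows lay above the highest AH cow, while CS cow 1, at 23.4 CPM, was below the AH median. The means (SD, n = 6) were 64.2 ± 50.1 CPM for AH, 391 ± 385 for CS and 468 ± 281 for RS. The log2 ratio was -2.61 (SE 0.74) in AH vs. CS and -2.87 (SE 0.58) in AH vs. RS.

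*PRSS53* codes for a secreted serine protease with several protease domains that is found in the inner root sheath of the hair follicle. Its level in AH ran from 4.36 CPM over a median of 8.55 to 32.8. In CS it ran from 23.8 over 76.8 to 110 CPM, and in RS from 36.7 over 53.2 to 113. Of the 12 cows on CS and RS, only CS cow 1 was within the AH range, and 4 of 6 AH cows were below 10 CPM. The mean of the AH cows was 14.05 ± 11.7 CPM, that of the CS cows 70.0 ± 33.0 and that of the RS cows 62.7 ± 30.4 (SD, n = 6). These gave log2 ratios of -2.32 (SE 0.56) in AH vs. CS and -2.16 (SE 0.57) in AH vs. RS.

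*KRT36*, a type I hard keratin of the kind that forms hair, nail and the filiform papillae of the tongue, differed from the other 3 genes in how its values were spread. In AH all 6 cows were low, between 0.688 and 3.61 CPM with a median of 1.92, and the highest had 5.24 times the lowest. In CS cows 1 to 6 had 0.772, 0.373, 9.45, 1.06, 83.4 and 2.40 CPM, and in RS they had 25.7, 0, 0.372, 0.819, 0.315 and 10.9 CPM. The 4 cows at 9.45 CPM or above (CS cows 3 and 5 and RS cows 1 and 6) held 203, 1740, 702 and 242 reads on the gene, so their levels did not rest on a handful of reads. The other CS and RS cows were at or below 2.40 CPM, and RS cow 2 had no read, which allows up to 3.

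The means of *KRT36*, which were 1.99 ± 1.17 CPM for AH, 16.2 ± 33.1 for CS and 6.35 ± 10.4 for RS (SD, n = 6), therefore followed single cows. CS cow 5 gave 85.6% of the CS sum and RS cow 1 gave 67.5% of the RS sum. The log2 ratio of means was -3.03 (SE 1.25) in AH vs. CS, and -0.50 without CS cow 5. In AH vs. RS it was -1.67 (SE 1.02), and -0.32 without RS cow 1, and the difference of mean log2(CPM + 0.5) was -0.017. By medians AH was the highest diet, with 1.92 CPM for AH, 1.73 for CS and 0.596 for RS and with log2 ratios of medians of 0.15 and 1.69. In RS 3 of 6 cows were below the lowest AH cow, so a lower level of *KRT36* on AH held for the mean and not for the median. For *TGM3*, *PRSS53* and *PI3* the ratio of medians kept the sign of the ratio of means in both comparisons. Leaving out any 1 cow kept the log2 ratios of these 3 genes between -1.50 and -0.93, between -2.76 and -1.90, and between -3.23 and -1.97, respectively.

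**Figure D1:**
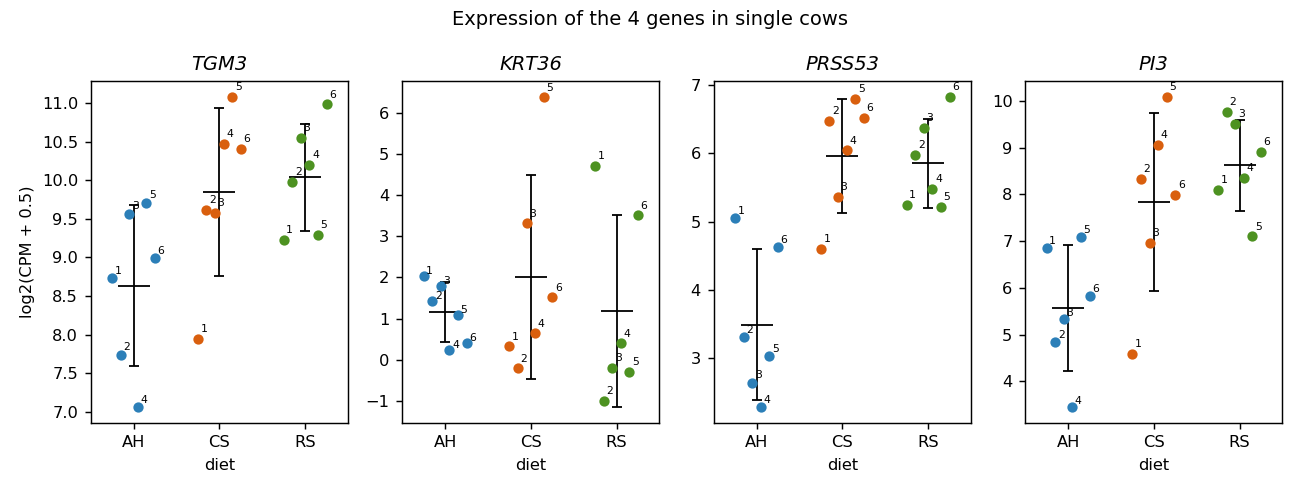
Expression of *TGM3*, *KRT36*, *PRSS53* and *PI3* in log2(CPM + 0.5) on the vertical axis for each cow, by diet; each point is 1 cow, labelled with its number, and bars mark the diet mean. *KRT36* is at or below 3.61 CPM in all AH cows and in most other cows, and reaches 83.4 CPM in CS cow 5 and 25.7 CPM in RS cow 1, while *TGM3*, *PRSS53* and *PI3* have lower means in AH than in the other diets, with overlap in CS and, for *TGM3*, also in RS.

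**Figure D2:**
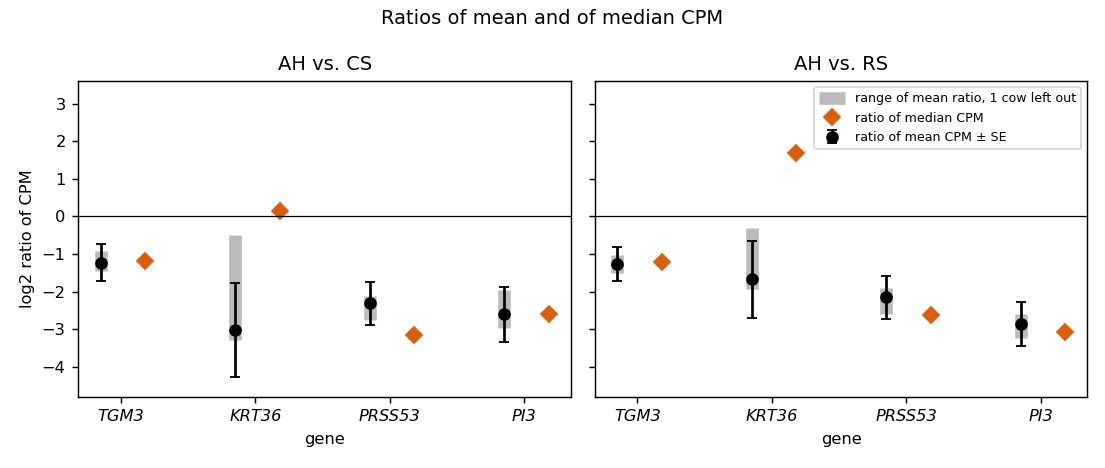
Log2 ratio of CPM of AH to CS (left) and of AH to RS (right) for each gene, with circles for the ratio of mean CPM (error bars, SE), grey bars for its range when 1 cow is left out and diamonds for the ratio of median CPM. Only for *KRT36* do the diamonds, at 0.15 and 1.69, lie on the other side of 0 from the circles, at -3.03 and -1.67.

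Across genes, a complete separation of diets was rare. No overlap, with the whole AH group under the RS group, was seen for 2 of the 4 genes, *PRSS53* and *PI3*, and for 9 of the 13284 genes tested (0.0678%). The AH group lay wholly under the CS group for 0 of the 4 genes and for 5 genes of the table (0.0376%). The 4 genes were chosen by this contrast, so these counts describe the choice. When the libraries were rescaled by TMM, AH cow 1 (33.9 CPM) and RS cow 1 (33.3 CPM) changed places for *PRSS53*, which left *PI3* as 1 of 4, beside 10 genes of the table. The study had called *PRSS53* and *PI3* in both AH vs. CS and AH vs. RS, and names *TGM3* in AH vs. CS. Its qPCR, which covered *PRSS53* and *PI3* of the 4 genes, found both higher in RS than in AH. In CS, *PRSS53* was higher than in AH by qPCR and *PI3* tended to be. No other cows are named for that qPCR.

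RS vs. CS was not the contrast that chose the genes, although the CS and RS values each entered the choice through their comparison with AH. On log2(CPM + 0.5) the difference in RS vs. CS was 0.19 for *TGM3* (95% interval -0.83 to 1.20). It was 0.78 for *PI3* (-0.76 to 2.32), -0.11 for *PRSS53* (-1.07 to 0.84) and -0.82 for *KRT36* (-2.94 to 1.31). The limma p was 0.706, 0.301, 0.806 and 0.432 in that order, with an adjusted p of 1.00 for each, and two-sided exact permutation tests over the 6 and 6 cows gave p = 0.742, 0.424, 0.792 and 0.558. No gene was called: limma, edgeR's quasi-likelihood test and DESeq2 each gave 0 of 4 genes at an adjusted p under 0.05 and 0 of 4 at an unadjusted p under 0.05. Over all 13284 genes limma called 0 (0%), and 171 (1.29%) had an unadjusted p under 0.05. The intervals reach a 2-fold difference in at least 1 direction for each of *TGM3*, *PI3*, *PRSS53* and *KRT36*, so a difference of that size between RS and CS could not be told from none with 6 cows per diet.

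Cows of 1 diet differed widely, with the highest at 3.09 times (*PRSS53* in RS) to 46.7 times (*PI3* in CS) the lowest for *TGM3*, *PI3* and *PRSS53*, and these 3 genes varied together among cows. Each value was taken as its deviation from the mean log2(CPM + 0.5) of the cow's diet, and the 6 pairs of genes were correlated over the 18 cows, with 100000 permutations within diets. The strongest relation of the 6 pairs was that of *TGM3* and *PI3*, with a Pearson's r of 0.84 (permutation p = 0.00017, adjusted p over 6 pairs 0.00102). Spearman's rho of ranks within diets was 0.75 (permutation p = 0.00167), and r was 0.68 without the 2 cows farthest from the median of *TGM3*.

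*PRSS53* and *PI3* had r = 0.72 (permutation p = 0.0015, adjusted 0.0045), rho = 0.70 and r = 0.63 without the 2 farthest cows. *TGM3* and *PRSS53* had r = 0.58 (permutation p = 0.0244, adjusted 0.0487) and rho = 0.60 (permutation p = 0.0186). This last relation was the least firm of the 3, as r fell to 0.32 without the 2 farthest cows, and its adjusted p exceeded 0.05 under TMM scaling (r = 0.56, permutation adjusted p = 0.0663). Leaving out CS cow 1 alone gave r = 0.46 with an adjusted permutation p of 0.268. The adjusted p also exceeded 0.05 without AH cows 4 or 6, without CS cows 3, 4, 5 or 6, or without RS cows 1, 2, 3, 5 or 6, with r between 0.50 and 0.59 in these fits, near the 0.58 of all cows in most of them.

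*KRT36* showed no such relation at this number of cows. Its r was 0.31 with *TGM3*, 0.26 with *PI3* and 0.19 with *PRSS53* (adjusted permutation p = 0.352, 0.420 and 0.420), and its rho was 0.26, 0.10 and 0.33. Without the 2 cows farthest from the median of *KRT36*, r was 0.09 for *PI3* and 0.21 for *PRSS53*. For *TGM3* it was 0.19 without the 2 cows farthest from the median of *TGM3*, so the cows with the highest *KRT36* stayed in. Whether the relations of the other genes differ from those of *KRT36* was not tested.

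**Figure D3:**
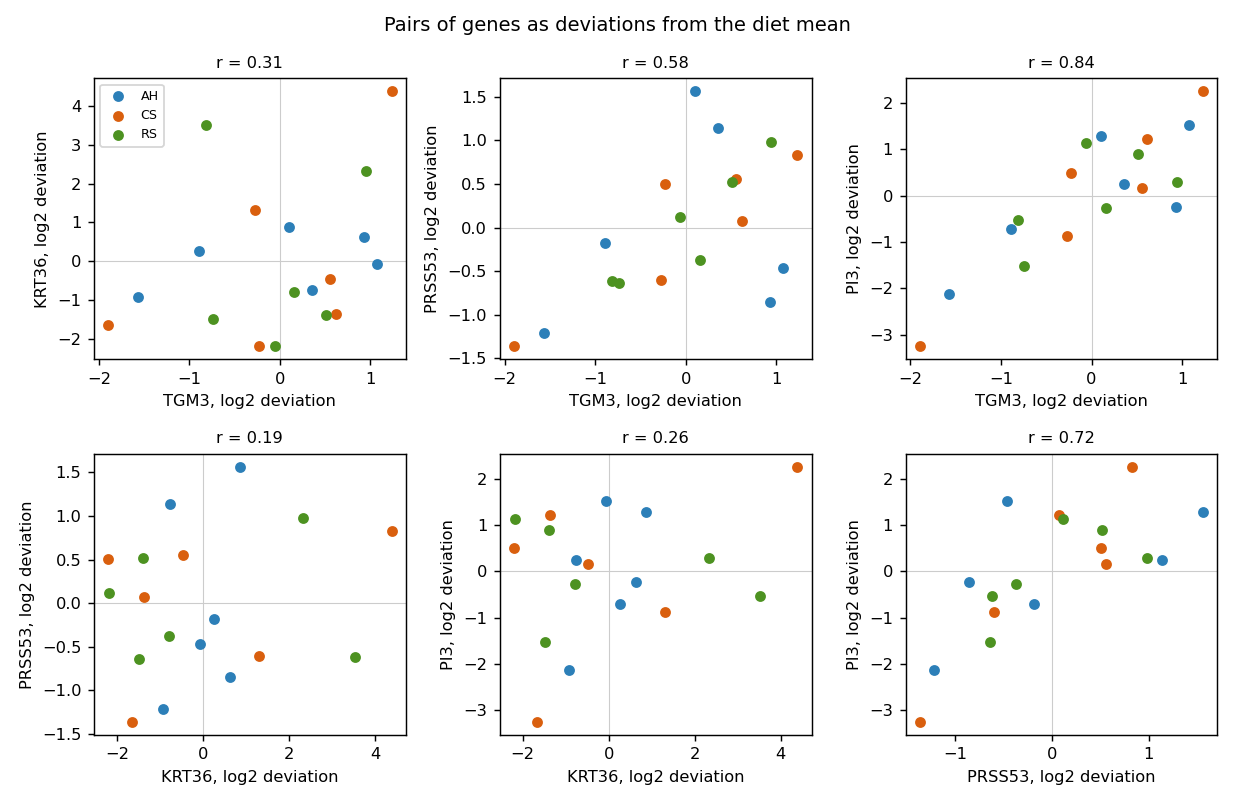
Each of the 6 pairs of genes as log2 deviations of single cows from their diet mean, with 1 point per cow coloured by diet and Pearson's r over 18 cows above each panel. The points of *TGM3* and *PI3* (r = 0.84) and of *PRSS53* and *PI3* (r = 0.72) follow a rising line, and those of *KRT36* with the other genes scatter (r = 0.19 to 0.31).

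Taken diet by diet, the 18 relations had 6 cows each. Among *TGM3*, *PI3* and *PRSS53*, r was above 0 in 9 of 9 cases, and among pairs with *KRT36* in 7 of 9. All 3 of these pairs had a high r in CS, with 0.95 for *TGM3* and *PI3* (exact permutation p = 0.00694), 0.91 for *PRSS53* and *PI3* (exact permutation p = 0.0125) and 0.88 for *TGM3* and *PRSS53* (exact permutation p = 0.0194). In RS *TGM3* and *PRSS53* had r = 0.92 (exact permutation p = 0.0111). After adjustment over the 18 relations none passed 0.05, and the lowest adjusted p of these exact permutation tests was 0.075. In AH the same pair had r = 0.23, which became -0.96 without the 2 farthest cows. *TGM3* and *PI3* had 0.80 in AH, which became -0.10 without the 2 farthest cows, and 0.64 in RS, which became 0.77. *PRSS53* and *PI3* had 0.60 in AH and 0.70 in RS, and 0.56 and 0.94 without the 2 farthest cows. In CS the 3 values dropped to 0.63, 0.32 and 0.40 without the 2 farthest cows, in the order given above for CS, so the high r of that diet rested in part on the cows at its ends.

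Single cows stood at the same end for several genes. AH cow 4 was the lowest of its diet for all 4 genes, with 133 CPM of *TGM3*, 0.688 of *KRT36*, 4.36 of *PRSS53* and 10.4 of *PI3*. CS cow 5 was the highest of its diet for all 4, with 2167, 83.4, 110 and 1093 CPM in the same order. CS cow 1 was the lowest of CS for *TGM3*, *PRSS53* and *PI3* (247, 23.8 and 23.4 CPM), and lay next to lowest for *KRT36*. AH cow 4 also had the lowest summed levels of the fibroblast and immune markers named further on (71.2 and 10.3 CPM) of all 18 cows, and CS cow 1 the lowest of CS (128 and 72.5 CPM). In RS no cow was at the same end for all 4 genes. RS cow 6 was highest for *TGM3* and *PRSS53* and RS cow 5 lowest for *PRSS53* and *PI3*, whereas RS cow 1 had the highest *KRT36* with the lowest *TGM3*, and RS cow 2 had the highest *PI3* with no read of *KRT36*. In AH, cow 1 was highest for *KRT36* and *PRSS53* and cow 5 for *TGM3* and *PI3*.

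**Figure D4:**
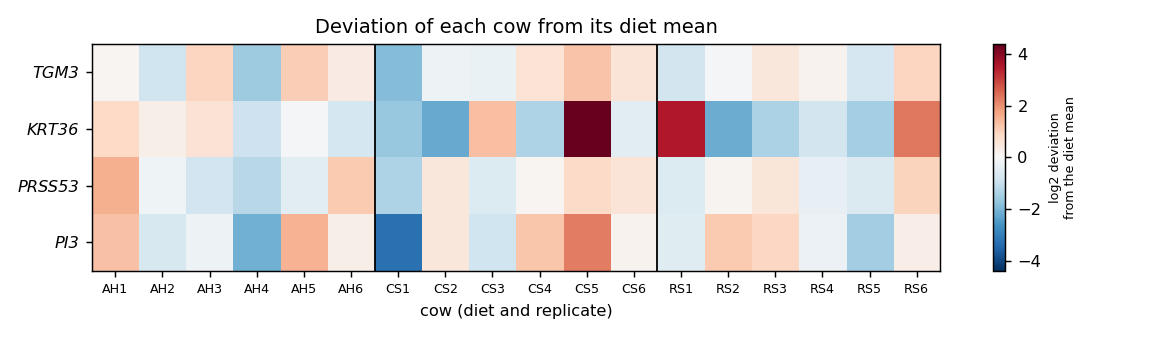
Log2 deviation of each of the 18 cows (columns, diet and number) from its diet mean for the 4 genes (rows), in red above and blue below the mean. CS cow 5 is red and AH cow 4 blue for all 4 genes, CS cow 1 and RS cow 5 are blue for all 4, and RS cow 6 is red for all 4, while RS cows 1 to 4 mix both colours.

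The relation between the genes within a cow was also followed as a proportion, a measure chosen after the values had been seen. The CPM of *PI3* as a percentage of the CPM of *TGM3* in the same cow had a median of 12.1% in AH (5.23% to 27.2%), 28.2% in CS (9.49% to 50.5%) and 36.7% in RS (21.8% to 86.1%). The proportion was thus lower in AH at the median, with overlap between all diets. *PRSS53* was at 3.85% of *TGM3* in AH (0.759% to 7.71%), 6.05% in CS (4.63% to 11.2%) and 5.74% in RS (3.77% to 6.25%), also with overlap. Since gene lengths do not enter, these percentages compare diets and not the genes.

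The place of each gene among all others was described by the same diet-centred r over 18 cows with the 13283 other genes tested, which share libraries and depth with it. For *PI3*, *TGM3* ranked 14 (top 0.105%) and *PRSS53* 202, and for *PRSS53*, *PI3* ranked 29 and *TGM3* 181. For *TGM3*, *PI3* ranked 101 (top 0.760%) and *PRSS53* only 2257. Many more genes varied like *TGM3* than like *PRSS53*: 918 genes (6.91%) had r above 0.7 with *TGM3*, against 245 (1.84%) with *PI3*, 89 (0.670%) with *KRT36* and 39 (0.294%) with *PRSS53*. Under TMM scaling the shares were 4.52%, 1.69%, 0.0527% and 0.271% in the same order, so that *KRT36* then had the fewest such genes. The other 3 genes ranked between 7124 and 9284 for *KRT36*, and between 4800 and 6739 under TMM scaling, in neither case among its nearest genes. The median r of all genes with *KRT36* was 0.33, and 0.05 under TMM scaling, so its likeness to other genes moved with the scaling of the libraries.

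Most of the genes nearest to each of the 4 carried no symbol in the table used. The gene most like *TGM3* was ENSBTAG00000001042 (r = 0.94), which was also second for *PI3* (r = 0.89). Of the 5 genes most like *PRSS53*, *LPO*, coding for the antimicrobial enzyme lactoperoxidase, was the only one with a symbol (r = 0.82, rank 4). The 72 other genes with a symbol had all been listed by the study on these cows and are no sample of the genome. Among them, *TPRG1* had r = 0.84 with *TGM3* and 0.84 with *PI3*, and *SLC6A14*, coding for an amino acid transporter, had 0.80 with *TGM3*. *LPO* had 0.80 with *PI3*, and *DUOXA2*, coding for the maturation factor of a hydrogen peroxide-producing oxidase, had 0.74 with *PRSS53*. *KRT36* came closest to *IGFBP3*, coding for a carrier of insulin-like growth factors, with 0.65 (0.53 under TMM scaling). At the other end, *TGM3* had r = -0.55 with the calprotectin gene *S100A8* (-0.40 under TMM scaling) and -0.55 with *EPHX2*, and *KRT36* had -0.51 with the co-chaperone gene *BAG3*.

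**Figure D5:**
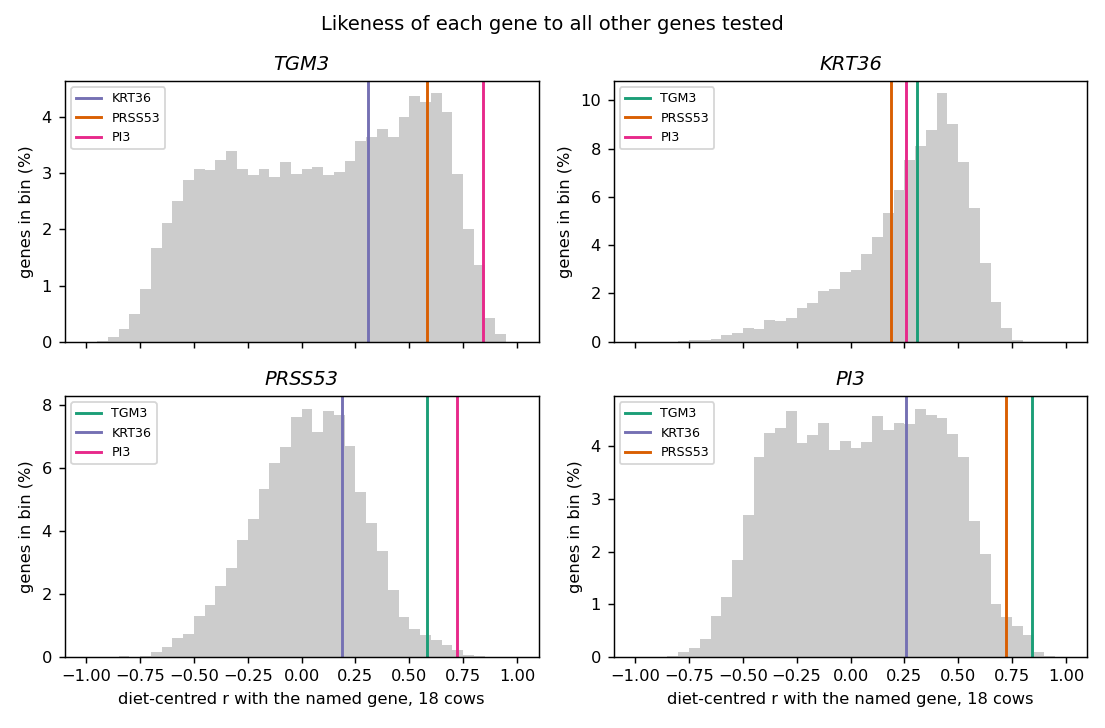
Distribution of the diet-centred r over 18 cows of each of the 4 genes with the 13283 other genes tested, in percent of genes per bin, with coloured lines at the r of the other 3 genes. The lines for *TGM3* and *PI3* lie in each other's upper tail at 0.84, and in the panel of *KRT36* all 3 lines lie in the middle of the distribution, at 0.19 to 0.31.

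In bulk tissue, fewer cells of a type and less RNA per cell cannot be told apart. The tissue could not be checked against 11 markers of rumen epithelium or 5 of smooth muscle, since none of their identifiers was paired with a symbol. Of 11 fibroblast markers 5 were matched (*CXCL12*, *DPT*, *FBN1*, *MGP* and *SERPINF1*). Their summed level ran from 71.2 to 1530 CPM in AH (median 395), from 128 to 567 in CS (259) and from 242 to 1783 in RS (328), with overlap between the diets. Of 10 immune markers 4 were matched (*AIF1*, *CD5L*, *CR2* and *IGLL1*), with a summed level of 10.3 to 396 CPM in AH (median 59.2), 72.5 to 206 in CS (145) and 171 to 560 in RS (208), and of 4 endothelial markers 1, *LYVE1*. The immune sum thus had its lowest median in AH, as had *TGM3*, *PRSS53* and *PI3*. All matched markers had been listed by the study on these cows, so their levels by diet are no independent check of the tissue. *AIF1*, a macrophage marker, ran from 6.84 to 28.2 CPM in AH, from 24.8 to 43.4 in CS and from 26.4 to 42.1 in RS, with little overlap of AH and the other diets. *CD5L*, *CR2* and *IGLL1* had their lowest medians in AH (0.777, 2.41 and 37.1 CPM), against 4.15, 6.41 and 101 in CS. By means, *CD5L* and *CR2* were higher in AH (8.33 and 14.4 CPM) than in CS (7.60 and 6.47). *IGLL1* was near equal by means (92.0 and 94.2 CPM), and the means of *CD5L*, *CR2* and *IGLL1* were highest in RS.

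Over 12 relations of the 4 genes with reads on genes, the share of the top 10 genes and the fibroblast sum, 0 passed an adjusted p of 0.05. The immune sum was not among these measures. The highest r was 0.57, of *TGM3* with the fibroblast sum (permutation p = 0.0206, adjusted 0.248), with a rho of 0.31 and r = 0.52 without the 2 farthest cows. For *KRT36* and the fibroblast sum r was 0.27 and rho 0.62 (permutation p of rho = 0.0151, adjusted 0.181). For *PI3* and *PRSS53*, r with that sum was 0.36 and 0.10. The part of these markers in the levels of the 4 genes was not tested.

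The label of hair sheath cornification could not be carried beyond the 4 genes. Of 160 other cornification genes in the lists used (transglutaminases, hard and inner root sheath keratins, epithelial keratins, envelope proteins, proteases and inhibitors, desmosomes and regulators), 4 had an identifier paired with a symbol, and 0 of the 25 hard and inner root sheath keratins. The 4 were *TGM2*, *PADI1*, *DSG1* and *SLURP1*, all listed by the study on these cows, so their directions are not independent evidence. With edgeR the study had called *DSG1* in both AH vs. CS and AH vs. RS. Its text also names *PADI1* in AH vs. CS and *SLURP1* in AH vs. RS. Its qPCR of *DSG1* was lower in CS and in RS than in AH.

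None of these 4 was called by limma in AH vs. CS, AH vs. RS or RS vs. CS. At an unadjusted p under 0.05, 1 of 4 was higher and 0 lower in AH vs. CS, and 2 higher and 1 lower in AH vs. RS, while none of the 4 had such a p in RS vs. CS. Over all genes limma called 1 of 13284 (0.00753%) in AH vs. CS, likewise 1 (0.00753%) in AH vs. RS, and 249 (1.87%) and 238 (1.79%) had an unadjusted p under 0.05. On recovered reads edgeR's quasi-likelihood test called 1, 1 and 0 genes of the table in these comparisons, in the order given, and DESeq2 called 5, 7 and 0. Of the 4 list genes, edgeR's test called 0 in each comparison, with 2, 2 and 0 at an unadjusted p under 0.05. DESeq2 called 0, 1 and 0, with 2, 3 and 0 at an unadjusted p under 0.05.

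*TGM2*, the tissue transglutaminase, which is found in many cell types, was at 43.0 ± 47.6 CPM for AH, 52.2 ± 36.3 for CS and 89.0 ± 52.4 for RS (SD, n = 6). Its log2 ratio in AH vs. RS was -1.05 (SE 0.74, unadjusted p = 0.0424 and adjusted p = 1.00 by limma). *SLURP1*, coding for a secreted regulator of keratinocytes, and *PADI1*, coding for an enzyme that converts arginine to citrulline in keratins, had their higher means in AH, opposite to *TGM3*, *PRSS53* and *PI3*. The AH cows had 54.6 ± 53.1 CPM of *SLURP1*, the CS cows 14.4 ± 9.91 and the RS cows 9.98 ± 5.16. The log2 ratio of its means reached 1.93 in AH vs. CS (SE 0.70, unadjusted p = 0.0128) and 2.45 in AH vs. RS (SE 0.65, unadjusted p = 0.00308), with an adjusted p of 1.00 by limma for both. It was the gene called by DESeq2 in AH vs. RS (adjusted p = 0.00628). *PADI1* was at 22.4 ± 20.6 CPM for AH, 7.16 ± 2.75 for CS and 4.50 ± 5.55 for RS. Its log2 ratio in AH vs. RS was 2.32 (SE 0.91, unadjusted p = 0.00302 and adjusted p = 1.00 by limma). *DSG1*, a desmosomal cadherin of the upper epithelium, was at 34.5 ± 40.5, 12.4 ± 6.11 and 11.7 ± 10.0 CPM and had no unadjusted p under 0.05. Its medians were 11.6, 11.3 and 8.24 CPM, so the higher mean in AH followed few cows, and leaving out 1 cow gave log2 differences of 0.28 to 1.05 in AH vs. CS. All 4 genes overlapped between the diets.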

How the data were processed

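RNA-seq libraries of ruminal papillae from 18 cows, 6 per diet, were used, with groups taken from the labels. The authors used TopHat2 and build UMD3.1 for alignment, dropped reads that mapped to several places or had many mismatches, and counted the rest on Ensembl genes by HTSeq; the deposited unit is CPM. The labels' extraction text speaks of rectal tissue and a total RNA kit, whereas the paper describes rumen papillae and an mRNA kit, and which holds was not tested. No batch is named.

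Reads were recovered from the CPM (99.9998% whole at a tolerance of 0.02). No 2 libraries of a diet agreed within sampling noise (chi-square per degree of freedom 40.6 to 316 over 45 pairs). A gene entered if 3 or more of the 6 cows of some diet exceeded 1 CPM. The scale was log2(CPM + 0.5), which understates changes of low genes, and the test was limma 3.58.1 (intensity trend, a term per diet, Benjamini-Hochberg adjustment) in R 4.3.3. A call needed both an adjusted p under 0.05 and mean CPM differing more than 2-fold, the threshold of the study. edgeR 4.0.16 and DESeq2 1.42.0 were run on the recovered reads. Permutation tests were two-sided, exact at 6 cows, where the smallest p of a correlation is 0.00139, and with 100000 resamples within diets at 18. Adjusted p-values of single correlations are over their family. The 2 farthest cows of a pair were those farthest from the median of 1 gene, the first of the pair in the order *TGM3*, *KRT36*, *PRSS53*, *PI3*. Programs were tested on simulated data. Alternatives changed pseudocount, filter, scaling and block, or omitted 1 cow at a time. TMM scaling of the counts of non-overlapping genes and of the likeness to other genes was added after the data had been seen.

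The members and the gene and marker lists were chosen with earlier results of these data known. Named beside the 4 genes were the 5 genes most like each, where they had a symbol, all matched transglutaminases and hard keratins, and in each other list up to 3 genes with an unadjusted p under 0.05 and the largest ratio. The other genes named, *DSG1*, ENSBTAG00000001042 and those most or least like the 4 among genes with a symbol, were chosen after their values were seen. Symbols came from the study's list of 73 identifiers. Tables, permutations and plots were made in Python 3.11.15 (scipy 1.17.1, pandas 2.3.3, numpy 2.4.6, matplotlib 3.10.9).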

Additional observations from a re-analysis of the deposited data

Results flagged for a closer look

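Of 24 groups of 6 cows (the 4 genes and the 4 matched list genes in each diet), 2 held a cow far from the others by Dixon's criterion at 95%, applied to CPM without a log. Chance alone sets apart about 1 in 20 groups of normally distributed values, a condition that was not tested here. In CS the highest cow for *KRT36* had 83.4 CPM, with the nearest cow at 9.45 CPM, a gap of 0.891 of the whole range. On log2(CPM + 0.5) these cows were at 6.39 and 3.31 and the lowest CS cow at -0.196, a scale to which the criterion was not applied. In AH the highest cow for *TGM2* had 139.9 CPM, with the nearest cow at 28.0 CPM, a gap of 0.908 of the range. Without CS cow 5 the log2 ratio of mean *KRT36* in AH vs. CS was -0.50.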

How the results depend on the processing

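The log2 ratios of mean CPM of *TGM3*, *PRSS53* and *PI3* kept their sign under every setting tried. That of *KRT36* in AH vs. CS, -3.03, was 0.15 by medians, -0.83 as a difference of mean log2(CPM + 0.5), and between -3.29 and -0.50 with 1 cow left out. In AH vs. RS it was 1.69 by medians and -0.017 as that difference. TMM scaling gave 1 gene with AH below every RS cow, and DESeq2 called 1 list gene in AH vs. RS. The diet-centred r of *TGM3* and *PRSS53* lost its call under TMM scaling (0.56) and in 12 of the 18 fits without 1 cow (0.46 to 0.59, against 0.46 to 0.71 over all 18), and that of *KRT36* and *PI3*, never called, ran from -0.019 to 0.36. The cause was not tested. Differences in RS vs. CS that were never called crossed 0 without 1 cow, between -0.19 and 0.43 for *TGM3*, -1.52 and 0.060 for *KRT36*, and -0.39 and 0.052 for *PRSS53*. Within diets, *KRT36* gave r of 0.029 with *TGM3* in RS by ranks, and -0.075 (CPM without a log) and -0.16 (TMM) with *PRSS53* in RS, and *TGM3* with *PRSS53* in AH gave -0.044 without a log. Without 1 cow, r ran from -0.10 to 0.58 (AH) and -0.55 to 0.71 (RS) for *TGM3* and *KRT36*, from -0.29 to 0.47 for *TGM3* and *PRSS53* in AH, from -0.24 to 0.70 (AH), -0.16 to 0.56 (CS) and -0.51 to 0.64 (RS) for *KRT36* and *PRSS53*, and from -0.058 to 0.62 (CS) and -0.72 to 0.063 (RS) for *KRT36* and *PI3*. Of 979 values recomputed under another setting, 937 kept their direction and their side of the threshold. Some of the 979 could not change in size, such as a difference in RS vs. CS without an AH cow or under the replicate block. The count is therefore no rate of stability. *KRT36* had no value under the filter of CPM over 1 in all 6 cows of a diet. The numbers were not taken to pair cows, since of 18 same-numbered pairs r of deviations ran from -0.48 to 0.71, with 12 over 0.1, and 5 were best with their own number. With a replicate block no call of the genes or pairs described changed, the table held 1, 2 and 0 calls (AH to CS, AH to RS, RS to CS), and r was 0.93 for *TGM3* and *PI3*, 0.83 for *PRSS53* and *PI3* and 0.69 for *TGM3* and *PRSS53*. Depth limits *KRT36* most, with levels near 1 CPM in most cows.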
